A study of Mus musculus with 15 samples.

Results

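The 10 genes described here are Fos, Fosb, Fosl1, Fosl2, Jun, Junb, Jund, Egr1, Ier2 and Ier3, the FOS and JUN subunits of the transcription factor AP-1 together with 3 further immediate early genes. The rule took them by name, as the genes to which the array's annotation assigns a probe set that carries no other gene. They accounted for 14 of the 34945 probe sets with 1 gene and for 10 of 18193 genes. RNA came from primary mammary tumour cells of FVB/N mice with the MMTV-PyMT transgene, in which the promoter of the mouse mammary tumour virus drives the polyoma middle T oncogene and is active mainly in mammary epithelium. All groups shared this genotype and the same culture as mammospheres, floating spheres grown without serum in EGF, FGF and B27. After 10 days vehicle (DMSO in the sample descriptions), DAPT (a Notch inhibitor), U0126 (Mek1), TAE226 (Fak) or PP2 (Src) was added for 2 days, with 3 arrays per group and 15 in all. The sources used here give neither the donors' ages, nor the doses, nor whether the 3 samples of a group came from separate mice or cultures. The labels call the samples biological replicates, and the p-values rest on the spread among the 3 arrays of each group.

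Immediate early genes are transcribed within minutes of a growth factor or stress signal, without the need for new protein. ERK, the kinase at the end of the Ras, Raf and Mek cascade, activates several of them by phosphorylating transcription factors that sit beside serum response factor on their promoters. FOS proteins pair with JUN proteins through leucine zippers to form AP-1, which binds DNA at sites of the TGANTCA type. JUN proteins can also pair with each other, whereas FOS proteins need a partner. In mammary tumour cells AP-1 and EGR1 are best known as readouts of growth factor receptors, Src and ERK. The cells here were sampled after 2 days of exposure, so the values are levels after a long treatment.

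Signals are MAS5 intensities, which are scaled per array to a common trimmed mean of 500, and array medians ran from 65.7 to 90.8. A probe set is called dim in a group where each of its arrays lay below its own median, and a fold change against a dim group is then a lower bound. The array names are numbered by group, so array order and treatment cannot be told apart. All 8 luminal epithelial markers lay above the median on all 15 arrays, whereas no fibroblast, leukocyte, endothelial or adipocyte marker did. Those that never exceeded it were 6 of 8 fibroblast, 3 of 7 leukocyte, 3 of 4 endothelial and 2 of 2 adipocyte markers. The remaining markers of these lists exceeded it on some arrays, and 1 leukocyte marker was called higher under PP2. The summed signal of 7 basal and myoepithelial markers ran from 13120 to 14420 under vehicle, 18260 to 18390 under DAPT, 18540 to 20570 under U0126, 12440 to 13080 under TAE226 and 9092 to 9819 under PP2, with the contractile marker Myh11 below the median on each array. The markers did not move as 1. Of 6 tested against vehicle, 3 rose and 1 fell under DAPT, 3 and 2 under U0126, 2 and 3 under TAE226, and 1 and 4 under PP2. The called shares were 66.7% under DAPT and 83.3% under each other inhibitor, beside 34.6% (DAPT), 40.9% (U0126), 31.1% (TAE226) and 52.8% (PP2) of all genes. The actin ratio of 3′ to 5′ signal, a measure of RNA shortening, was 1.42 ± 0.06 under vehicle, 1.35 ± 0.07 under DAPT, 1.28 ± 0.07 under U0126, 1.33 ± 0.07 under TAE226 and 1.57 ± 0.04 under PP2 (SD, n = 3 each). The same ratio for Gapdh varied less, with group means of 0.78 under vehicle, 0.80 under DAPT, 0.79 under U0126 and TAE226, and 0.83 under PP2. The part of the basal signal and of RNA quality in the results that follow was not tested.

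RefSeq promoters on GRCm38.p6, from 250 bases before to 50 after the start of the gene, were searched for 7 of the 10 genes. Egr1, Fosl1 and Ier2 had no window in the search. A filter by chromosome was applied to the windows of these 10 genes and not to the promoters counted as background. Those of Fos, Jun and Fosl2 are shown because these genes followed 3 different courses across the inhibitors and each window holds a different motif. Capitals mark TGACGT and TATAAA in Fos (chr12:85473640-85473939, plus strand), TGACNTCA in Jun (chr4:95052173-95052472, minus strand) and the EGR motif GCGNGGGCG in Fosl2 (chr5:32136222-32136521, plus strand).
Fos: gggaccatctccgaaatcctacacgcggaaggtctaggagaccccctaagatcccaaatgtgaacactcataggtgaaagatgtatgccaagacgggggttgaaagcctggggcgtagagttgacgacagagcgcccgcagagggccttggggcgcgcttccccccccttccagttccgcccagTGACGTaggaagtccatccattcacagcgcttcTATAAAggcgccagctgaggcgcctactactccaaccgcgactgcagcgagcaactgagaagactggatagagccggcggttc
Jun: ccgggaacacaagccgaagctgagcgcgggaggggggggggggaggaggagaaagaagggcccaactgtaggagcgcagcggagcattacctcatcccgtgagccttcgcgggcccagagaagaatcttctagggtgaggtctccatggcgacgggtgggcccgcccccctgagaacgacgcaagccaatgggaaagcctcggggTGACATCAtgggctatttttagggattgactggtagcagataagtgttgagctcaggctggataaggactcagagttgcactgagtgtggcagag
Fosl2: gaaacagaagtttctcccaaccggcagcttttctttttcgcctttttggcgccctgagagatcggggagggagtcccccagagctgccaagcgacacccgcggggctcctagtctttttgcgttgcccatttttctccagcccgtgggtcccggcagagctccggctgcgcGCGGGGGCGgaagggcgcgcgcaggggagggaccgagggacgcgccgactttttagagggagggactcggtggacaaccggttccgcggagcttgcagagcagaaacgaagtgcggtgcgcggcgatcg
Motifs were searched on both strands as written. In Fos the TGACGT match began 66 bases and TATAAA 33 bases before the start. Among 32851 promoters of the same length, 7.51% held TGACGT and 13.62% held TATAAA. In Jun the match to TGACNTCA lay 45 bases before the start, and 8.83% of all promoters held this motif. In Fosl2 the EGR motif lay 79 bases before the start, and Fosb carried the same motif 50 bases before its own, against 5.55% of all promoters. Junb held TATAAA at the first base after the start. None of the 7 windows held the AP-1 motif TGANTCA, the serum response factor motif known as the CArG box, or the ETS motif CCGGAAG, which were present in 7.81%, 1.63% and 8.86% of all promoters. These are matches of letters in a short window and say nothing of binding. Egr1, Fosl1 and Ier2 were not searched, so the missing motifs describe the 7 windows only.

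Of the 10 genes, 8 lay above the array median on all 15 arrays. Fosl1 passed the filter for testing on 6 arrays, those of vehicle and TAE226, so a difference from the other groups was built into its being tested. Fosb was dim on all 15 arrays and was not tested. Its signals ran from 12.4 to 47.8 with overlapping groups, so this FOS family member was never above the array median. An F-test over the treatments in limma called each of the 9 tested genes, Fosl1 among them, as it did 73.2% of all genes tested. For the 8 genes above the median on all arrays, group means spanned from 0.38 (Jun) to 3.12 (Egr1) on the log2 scale. The median span was 0.52 for all genes and 1.25 for the 9 genes, a set that includes Fosl1 with its built-in difference.

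**Figure D1:**
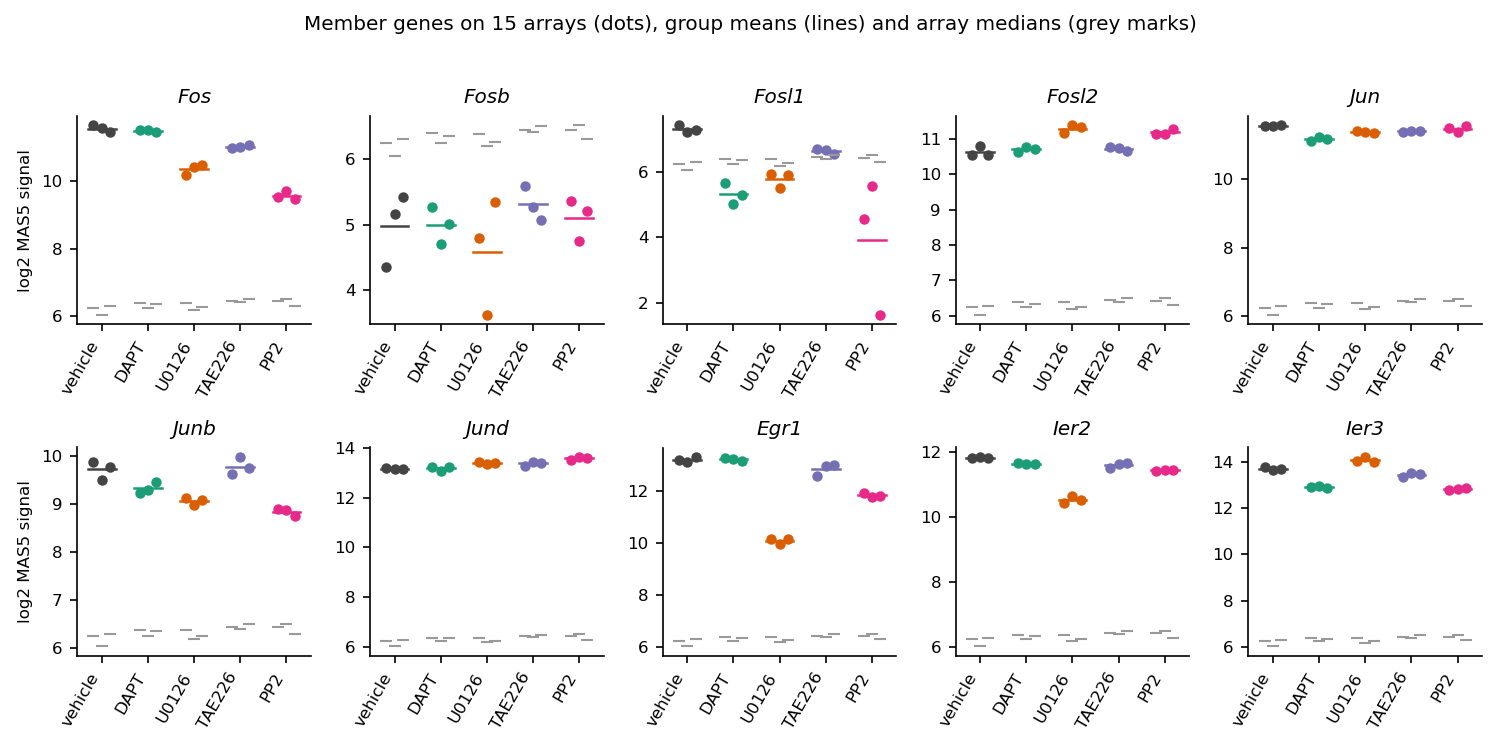
Log2 MAS5 signal of each gene's representative probe set on each of the 15 arrays, by treatment, with a line at the mean of each group of 3 and grey marks at the array medians. Egr1 was lowest under U0126, at 977 to 1140 on the linear scale against 8768 to 9994 under vehicle, while Fos was lowest under PP2 and Ier3 was highest under U0126.

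Egr1 (probe set 1417065_at), a zinc finger transcription factor induced by ERK, gave the widest separation among the genes present on every array. Its signals were 9202, 8768 and 9994 in the vehicle cultures and 9751, 9383 and 8984 under DAPT. They were 1140, 977 and 1130 under U0126, 3787, 3474 and 3568 under PP2, and 6069, 7782 and 8042 under TAE226. Vehicle and DAPT overlapped, and below them TAE226, PP2 and U0126 formed 3 separate steps. Egr1 fell 8.62-fold under U0126 (log2 fold change −3.11, SE 0.09, limma adjusted p = 6.57e-14), from a mean log2 signal of 13.18 ± 0.10 to 10.08 ± 0.13 (SD, n = 3 each). It fell 2.58-fold under PP2, to 11.82 ± 0.06 (−1.37, SE 0.09, adjusted p = 1.49e-09), and 1.29-fold under TAE226 (−0.36, adjusted p = 0.0056). Under DAPT the change was 0.01, with a 95% interval from −0.18 to 0.20. In these bulk cultures fewer cells of a type and less RNA per cell cannot be told apart, here and in the results that follow.

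Ier2 (probe set 1416442_at), a nuclear regulator of transcription, was also lowest under U0126, but its other groups lay close together. The vehicle arrays gave 3641, 3712 and 3607 and the U0126 arrays 1396, 1603 and 1480. Under DAPT the signals were 3231, 3192 and 3169, under TAE226 2952, 3195 and 3238, and under PP2 2748, 2829 and 2795. Every inhibitor array lay below every vehicle array, and DAPT and TAE226 overlapped each other. Ier2 fell 2.45-fold under U0126 (−1.29, SE 0.05, adjusted p = 6.32e-12) and 1.31-fold under PP2 (−0.39, adjusted p = 1.24e-05). The falls under TAE226 (−0.22, adjusted p = 0.00438) and DAPT (−0.19, adjusted p = 0.0109) were smaller, and DAPT and TAE226 differed by 0.03 (95% interval −0.08 to 0.15).

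Ier3 (probe set 1419647_a_at), a stress-responsive gene that affects cell survival and ERK signalling, rose under U0126 and fell under the other 3 inhibitors. Its signals were 13765, 12905 and 13017 under vehicle and 16834, 18843 and 16000 under U0126. They were 10213, 11760 and 11284 under TAE226, 7730, 7837 and 7440 under DAPT, and 7087, 7240 and 7339 under PP2. No inhibitor array overlapped the vehicle arrays. Ier3 rose 1.30-fold under U0126 (0.38, SE 0.06, adjusted p = 0.000131) and fell 1.72-fold under DAPT (−0.79, SE 0.06, adjusted p = 5.03e-08), 1.83-fold under PP2 (−0.87, adjusted p = 4.99e-09) and 1.19-fold under TAE226 (−0.26, adjusted p = 0.00513). DAPT and PP2 did not differ past the threshold (0.09, 95% interval −0.05 to 0.22, adjusted p = 0.304), although their arrays did not overlap. With quantile normalization the difference between DAPT and PP2 passed (0.14, adjusted p = 0.0137). Egr1 and Ier2 on the one hand and Ier3 on the other thus had opposite extremes under the Mek1 inhibitor.

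Fos (probe set 1423100_at), the founding FOS subunit of AP-1, was lowest under PP2 and not under U0126. Its signals were 3242, 3067 and 2835 under vehicle, 2938, 2982 and 2828 under DAPT, and 2055, 2081 and 2148 under TAE226. They were 1165, 1368 and 1420 under U0126 and 743, 834 and 714 under PP2. Vehicle and DAPT overlapped, and the other 3 groups stood apart from them and from each other. Fos fell 4.0-fold under PP2 (−2.0, SE 0.08, adjusted p = 1.81e-12), from 11.57 ± 0.10 to 9.57 ± 0.12, and 2.32-fold under U0126 (−1.21, SE 0.08, adjusted p = 1.18e-09), to 10.36 ± 0.15. It fell 1.45-fold under TAE226 (−0.54, adjusted p = 4e-05), and the change under DAPT was −0.06 (95% interval −0.22 to 0.10).

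Fosl1, which encodes FRA-1, a FOS family member without a strong activation domain of its own, was weak on these arrays. Its brighter probe set, 1417487_at, gave 170, 149 and 156 under vehicle and 104, 102 and 93.6 under TAE226. It gave 50.2, 32 and 39.3 under DAPT, 61.2, 45.5 and 59 under U0126, and 23.7, 46.8 and 3.1 under PP2. Every inhibitor array lay below every vehicle array, and the gene was dim under DAPT, U0126 and PP2. Fosl1 entered the tests only through its vehicle and TAE226 arrays. Its p-values under DAPT, U0126 and PP2 are therefore no independent support for a fall. It was called lower under DAPT (at least 1.97-fold, adjusted p = 0.0243) and PP2 (at least 1.86-fold, adjusted p = 0.000292). The call under DAPT was lost without vehicle replicate 1, 2 or 3 or DAPT replicate 2 or 3, with adjusted p from 0.051 to 0.0744. Under U0126 the fall of at least 2.04-fold did not pass (adjusted p = 0.0683), and under TAE226 neither did a change of −0.67 (adjusted p = 0.473). The value under U0126 passed under 4 alternatives, with adjusted p from 9e-05 (pseudocount) to 0.0471 (array weights), and that under TAE226 under 2, at 0.0145 with only the groups compared and 0.0271 with the pseudocount. The wide SE of 0.64 came with the spread in PP2, where the log2 SD was 2.04, and the second Fosl1 probe set was dim on all 15 arrays.

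Fosl2, which encodes FRA-2, moved the other way from Fos under U0126 and PP2. Its representative probe set, 1437247_at, gave 1495, 1760 and 1494 under vehicle, 2265, 2649 and 2554 under U0126, and 2246, 2251 and 2488 under PP2. Under DAPT the signals were 1564, 1724 and 1687, and under TAE226 they were 1742, 1698 and 1595. The U0126 and PP2 arrays lay above all others and overlapped each other, and the remaining 3 groups overlapped. Fosl2 rose 1.57-fold under U0126 (0.65, SE 0.08, adjusted p = 2.73e-06) and 1.47-fold under PP2 (0.56, SE 0.08, adjusted p = 9.37e-06). The changes under DAPT (0.07, adjusted p = 0.516) and TAE226 (0.09, adjusted p = 0.414) did not pass. A dimmer second probe set, 1422931_at, rose under U0126 (0.72, adjusted p = 0.0297) but did not pass under PP2 (0.20, adjusted p = 0.529).

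**Figure D2:**
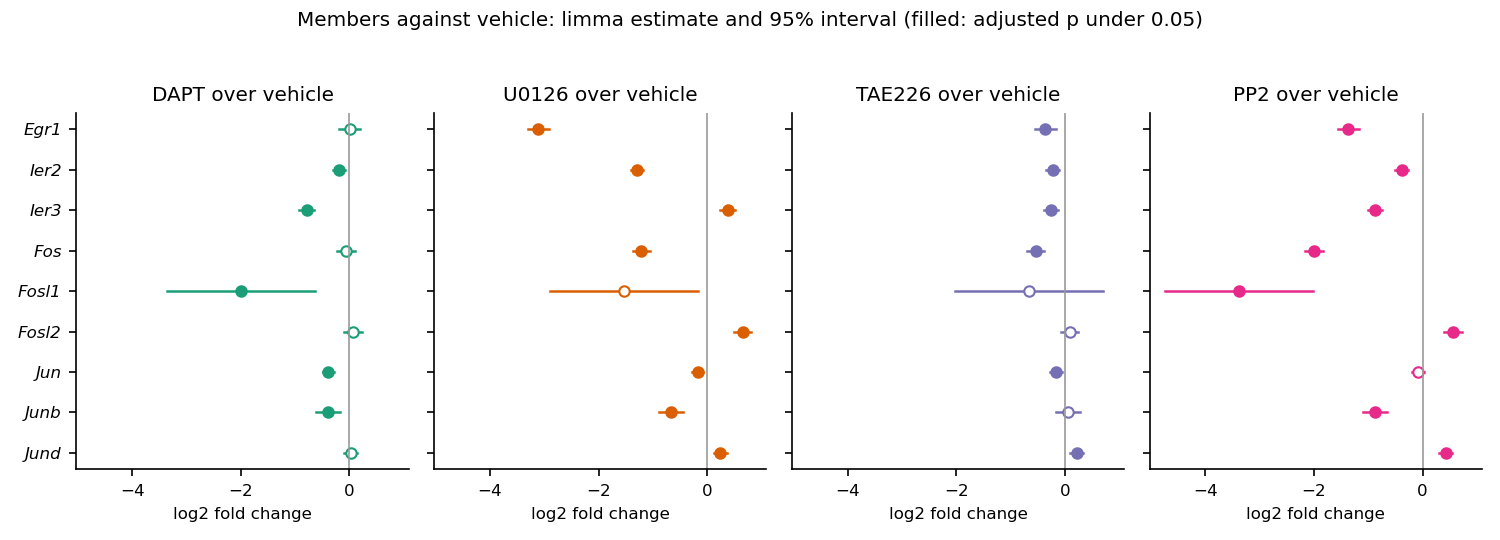
Log2 fold change of each tested gene over vehicle under each inhibitor, as limma estimates with 95% intervals, filled where the adjusted p was under 0.05. Among the 8 members present on all arrays Egr1 had the largest fall, at −3.11 under U0126. Fosl1 is shown at its fitted value, although it was dim under DAPT, U0126 and PP2, and the rise of Jund under TAE226 turned to −0.04 with arrays centred on their medians.

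Among the JUN subunits, Junb (probe set 1415899_at) showed the widest range. Its signals were 947, 727 and 876 under vehicle and 789, 1013 and 859 under TAE226. They were 600, 627 and 706 under DAPT, 556, 505 and 547 under U0126, and 479, 470 and 430 under PP2. Vehicle and TAE226 overlapped, and all arrays of the other 3 groups lay below both. Junb fell 1.84-fold under PP2 (−0.88, SE 0.11, adjusted p = 2.27e-06), 1.58-fold under U0126 (−0.66, adjusted p = 8.57e-05) and 1.31-fold under DAPT (−0.39, adjusted p = 0.00789). Under TAE226 the change was 0.06 (95% interval −0.16 to 0.28), and it was −0.19 with arrays centred on their medians. In order of level DAPT, U0126 and PP2 followed one another without passing the threshold between neighbours (adjusted p = 0.0513 and 0.0845), although neither pair of groups overlapped. DAPT against U0126 passed under 3 alternatives (adjusted p from 0.0343 to 0.0487) and U0126 against PP2 with median centring (0.36, adjusted p = 0.0111). DAPT and PP2 differed (0.49, adjusted p = 0.00147).

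Jun, the founding JUN subunit of AP-1 (representative probe set 1417409_at), had its lowest signals under DAPT on this probe set. This probe set gave 3014, 3059 and 3071 under vehicle and 2251, 2427 and 2331 under DAPT. It gave 2771, 2678 and 2644 under U0126, 2674, 2765 and 2741 under TAE226, and 2895, 2698 and 3042 under PP2. The DAPT arrays lay below all others, and only PP2 overlapped vehicle. Jun fell 1.31-fold under DAPT (−0.38, SE 0.05, adjusted p = 1.89e-05). Its falls under U0126 (−0.18, adjusted p = 0.0107) and TAE226 (−0.16, adjusted p = 0.0238) were lost with median centring (adjusted p = 0.0642) and with quantile normalization (adjusted p = 0.0837), respectively. The TAE226 call was also lost without vehicle replicate 2 or 3 or TAE226 replicate 1 or 3 (adjusted p from 0.0538 to 0.0714).

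The Jun probe sets disagreed on the lowest group and under PP2. The second was lower under U0126 than under DAPT in its mean, without passing (DAPT minus U0126 0.05, adjusted p = 0.524), where the representative one was lower under DAPT (−0.21, adjusted p = 0.00333), a call lost when both were averaged (−0.078, adjusted p = 0.211). This second probe set, 1448694_at, gave 1359, 1450 and 1320 under vehicle and 1642, 1557 and 1624 under PP2, and was called higher (0.22, adjusted p = 0.00481). The representative one was at −0.08 (adjusted p = 0.179) under PP2. Both were called lower under DAPT, where the second was at −0.26 (adjusted p = 0.00366), and under U0126, where it was at −0.31 (adjusted p = 0.000642). No direction can therefore be given for Jun under PP2.

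Jund (probe set 1449117_at), the JUN subunit that is usually present in resting cells, was highest under PP2. Its signals were 9321, 8960 and 9039 under vehicle, 9566, 8655 and 9554 under DAPT, and 9918, 11094 and 10767 under TAE226. They were 11115, 10436 and 10825 under U0126 and 11720, 12690 and 12194 under PP2. Vehicle and DAPT overlapped, and the arrays of the 3 kinase inhibitors lay above both. Jund rose 1.34-fold under PP2 (0.42, SE 0.06, adjusted p = 7.9e-06), 1.18-fold under U0126 (0.24, adjusted p = 0.00212) and 1.16-fold under TAE226 (0.22, adjusted p = 0.00731), the last of which turned to a negative value with median centring. With each array centred on its median the values were 0.20 under PP2 (adjusted p = 0.0679), 0.16 under U0126 (adjusted p = 0.181) and −0.04 under TAE226 (adjusted p = 0.765), so none of these rises held under that scaling. A second Jund probe set was dim on all 15 arrays, and averaging it with the first turned the value under U0126 to −0.49 (adjusted p = 0.0804).

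Counted over the 8 genes present on every array, U0126 changed all of them, with 5 falls (Fos, Jun, Junb, Egr1, Ier2) and 3 rises (Fosl2, Jund, Ier3). Of all genes tested, 40.9% were called under U0126, 19.5% higher and 21.4% lower. Under PP2, 5 fell (Fos, Junb, Egr1, Ier2, Ier3), 2 rose (Fosl2, Jund) and Jun did not pass, against 52.8% of all genes called, 26.1% higher and 26.7% lower. Under TAE226, 5 fell (Fos, Jun, Egr1, Ier2, Ier3), Jund rose and 2 did not pass, against 31.1% of all genes, 15.2% higher and 15.9% lower. Under DAPT, 4 fell (Jun, Junb, Ier2, Ier3), none rose and 4 did not pass, against 34.6% of all genes, 17.1% higher and 17.5% lower. Among the 9680 genes that, like these 8, lay above the median on all 15 arrays, the called shares were 43.5% under U0126, 56.1% under PP2, 33.6% under TAE226 and 37.4% under DAPT. The 4 comparisons share the vehicle arrays, so their calls are not independent.

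The size of the changes in these 8 genes differed between inhibitors. The median absolute log2 fold change was 0.66 under U0126 and 0.72 under PP2, beside 0.20 and 0.27 over the 9680 genes present on every array. It was 0.22 under TAE226 and 0.13 under DAPT, beside 0.17 and 0.18. Centring each array on its median in place of the MAS5 scaling shifted all log2 fold changes by −0.08 under U0126, −0.22 under PP2, −0.25 under TAE226 and −0.13 under DAPT. With that scaling, 10.6% of all genes were higher and 21.2% lower under U0126, 10.6% and 38% under PP2, 3.75% and 37.2% under TAE226, and 6.04% and 21.4% under DAPT. Of the 9 tested genes, Fosl1 included, 2 were then higher and 5 lower under U0126, 1 and 7 under PP2, 0 and 5 under TAE226, and 0 and 5 under DAPT.

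U0126 and PP2 were compared directly, since their lowest genes were not the same. Egr1 was 3.34-fold lower under U0126 than under PP2 (−1.74, SE 0.09, adjusted p = 5.79e-11) and Ier2 was 1.87-fold lower (−0.90, SE 0.05, adjusted p = 3.74e-10). Fos, by contrast, was 1.72-fold higher under U0126 than under PP2 (0.79, SE 0.08, adjusted p = 1.57e-07), and Ier3 was 2.38-fold higher (1.25, SE 0.06, adjusted p = 4.1e-11). The arrays of the 2 groups did not overlap for any of these 4 genes. Of all genes, 55.9% were called in this contrast and 60.8% did not overlap. Fosl2 (0.09, 95% interval −0.07 to 0.26), Jun (−0.09, −0.20 to 0.02) and Junb (0.22, −0.0011 to 0.44) did not pass, although the second Jun probe set was called lower under U0126 (−0.53, adjusted p = 1.42e-06). Jund was lower under U0126 (−0.18, adjusted p = 0.0132), a call lost with median centring (adjusted p = 0.749) and without U0126 replicate 2 or PP2 replicate 2 (adjusted p = 0.0517 and 0.063). Fosl1 was dim in both groups, so no fold is given.

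**Figure D3:**
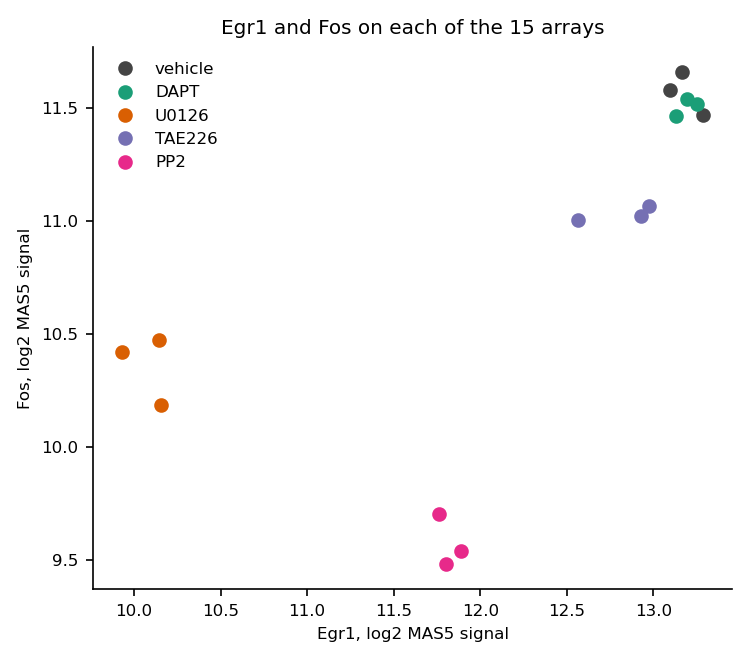
Log2 MAS5 signal of Egr1 (horizontal) against Fos (vertical) on each of the 15 arrays, by treatment. The U0126 arrays lie at the far left, with mean Egr1 at 10.08, and the PP2 arrays at the bottom, with mean Fos at 9.57, while vehicle and DAPT share the upper right corner.

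TAE226, the Fak inhibitor, stood closest to vehicle among the kinase inhibitors for Fos and Egr1. Relative to PP2, TAE226 cultures had higher Fos (2.75-fold, 1.46, adjusted p = 1.06e-10), Egr1 (2.01-fold, 1.01, adjusted p = 1.07e-07), Ier3 (1.53-fold, 0.62, adjusted p = 5.53e-07) and Junb (0.94, adjusted p = 1.49e-06). They had lower Fosl2 (−0.47, adjusted p = 7.97e-05) and Jund (−0.20, adjusted p = 0.00702; 0.654 with the mean over its probe sets), in a contrast in which 43.6% of all genes were called. Relative to U0126 they had 6.71-fold higher Egr1 (U0126 minus TAE226 −2.75, adjusted p = 7.52e-13) and 2.10-fold higher Ier2 (adjusted p = 1.83e-10), with 37.2% of all genes called. Ier3 and Fosl2 were higher under U0126 than under TAE226 (0.64, adjusted p = 7.64e-07, and 0.57, adjusted p = 2e-05). Fos and Junb were lower under U0126 (−0.67, adjusted p = 2.97e-06, and −0.72, adjusted p = 4.86e-05), and Jun and Jund did not pass. The second Jun probe set was called lower under U0126 (−0.18, adjusted p = 0.0264). So was Jund with the mean over its probe sets (−0.58, adjusted p = 0.0448). That mean takes in the Jund probe set that was dim on all 15 arrays, and the brighter one was at 0.03 (adjusted p = 0.73).

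DAPT, the Notch inhibitor, was set apart from the kinase inhibitors by Fos and Egr1, whose DAPT and vehicle arrays overlapped. Compared with U0126, DAPT cultures had 8.67-fold higher Egr1 (3.12, adjusted p = 1.06e-13), 2.22-fold higher Fos (1.15, adjusted p = 2.89e-09) and 2.14-fold higher Ier2 (1.10, adjusted p = 7.68e-11). Ier3 was 2.24-fold higher under U0126 than under DAPT (adjusted p = 2.6e-10), and 44.7% of all genes were called in this contrast. Against PP2, where 39.7% of all genes were called, Fos was 3.83-fold higher under DAPT (1.94, adjusted p = 5.52e-12) and Jun was lower (−0.30, adjusted p = 0.000176). Against TAE226, with 22.6% of all genes called, DAPT cultures had lower Ier3 (−0.53, adjusted p = 8.45e-06), Junb (−0.46, adjusted p = 0.0042) and Jun (−0.22, adjusted p = 0.00402), and higher Fos (0.48, adjusted p = 0.000176) and Egr1 (0.37, adjusted p = 0.00615). With median centring Jun passed neither against PP2 (−0.21, adjusted p = 0.133) nor against TAE226 (−0.10, adjusted p = 0.541), and its second probe set did not pass against TAE226 (−0.13, adjusted p = 0.153).

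**Figure D4:**
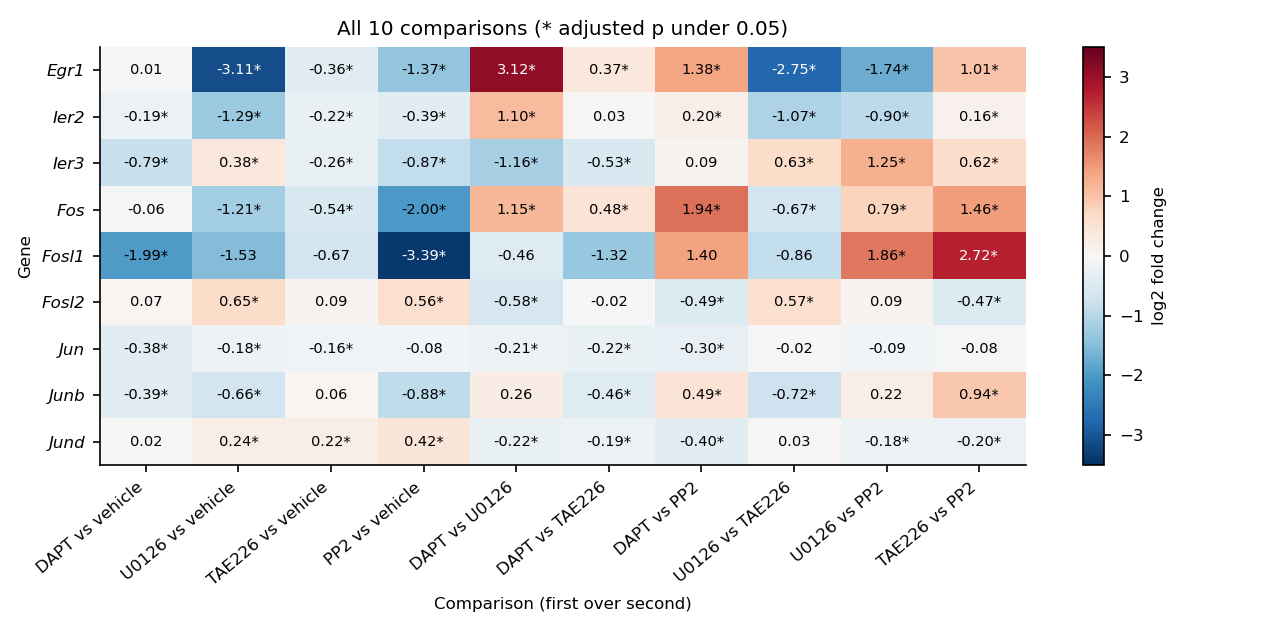
Log2 difference of each tested gene in each of the 10 pairs of treatments, first named minus second named, with an asterisk where the adjusted p was under 0.05. Values of Fosl1 against dim groups are fitted, and the positive value of Jund under TAE226 turned negative with median centring. Egr1 differs by 1.74 or more in each pair with U0126, Fos differs most between PP2 and vehicle (2.0) or DAPT (1.94), and Ier3 is higher under U0126 than under each other treatment.

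Other immediate early genes did not follow one course. Of 27 tested under U0126, 12 rose, 5 fell and 10 did not pass (median log2 fold change 0.27, all genes 0.00). The fallers were led by further EGR factors, with Egr2 at least 2.25-fold (adjusted p = 1.39e-05) and Egr3 at −3.28 (adjusted p = 4.01e-12), and by Arc, a regulator of synapses, at least 3.65-fold (adjusted p = 7.37e-05). The stress gene Gadd45b rose by 2.37 (adjusted p = 1.06e-10). Under PP2, 4 rose, 17 fell and 6 did not pass (median −0.50), with Egr3 at −2.04 (adjusted p = 1.19e-09) and the kinase gene Plk3 at −1.67 (adjusted p = 5.57e-05). Under TAE226, 11 rose and 3 fell (median 0.15), with the matricellular genes Ccn1 and Ccn2 at 1.30 and 0.83 and Egr3 at −1.24, whereas with median centring 4 rose and 6 fell. The called shares were 63% under U0126, 77.8% under PP2, 51.9% under TAE226 and 44.4% under DAPT, beside 40.9%, 52.8%, 31.1% and 34.6% of all genes. Under DAPT, 4 rose and 8 fell (median −0.07), with Klf4, a zinc finger factor of epithelial differentiation, at −1.50 (adjusted p = 1.33e-09) and Egr3 at −0.88. With the mean over its probe sets, Egr3 no longer passed under TAE226 (adjusted p = 0.331) or DAPT (adjusted p = 0.175).

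Among genes that ERK induces and that feed back on the pathway, some fell under each inhibitor. Under PP2, 11 of 12 tested fell and none rose (median −0.99, or −0.91 with 2 dim genes at their bound), and under U0126 7 fell and none rose (median −0.62). Under TAE226 5 fell and 1 rose (median −0.29), and under DAPT 4 fell and none rose (median −0.14). The called shares of 91.7% under PP2, 58.3% under U0126, 50% under TAE226 and 33.3% under DAPT stand beside 52.8%, 40.9%, 31.1% and 34.6% of all genes, so the share under DAPT is at the background. Of the 4 falls under DAPT, Etv5 was lost under 8 and Spry2 under 5 of 16 alternatives, single replicates left out among them, and the 1 rise under TAE226, Il17rd, was lost under 11 of 15. Dusp6, a phosphatase that acts on ERK, was at −2.0 under U0126 (adjusted p = 6.75e-14), −1.93 under PP2 (adjusted p = 1.36e-13), −0.39 under TAE226 and −0.25 under DAPT. The ETS factor Etv5 was at −1.69 under U0126 and −2.46 under PP2, and the phosphatase gene Dusp4 at −1.51, −1.85 and, under DAPT, −1.54 (adjusted p = 4.25e-09). Unlike Egr1, Dusp6 thus stood at similar values under U0126 and PP2. That difference between genes was not tested.

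**Figure D5:**
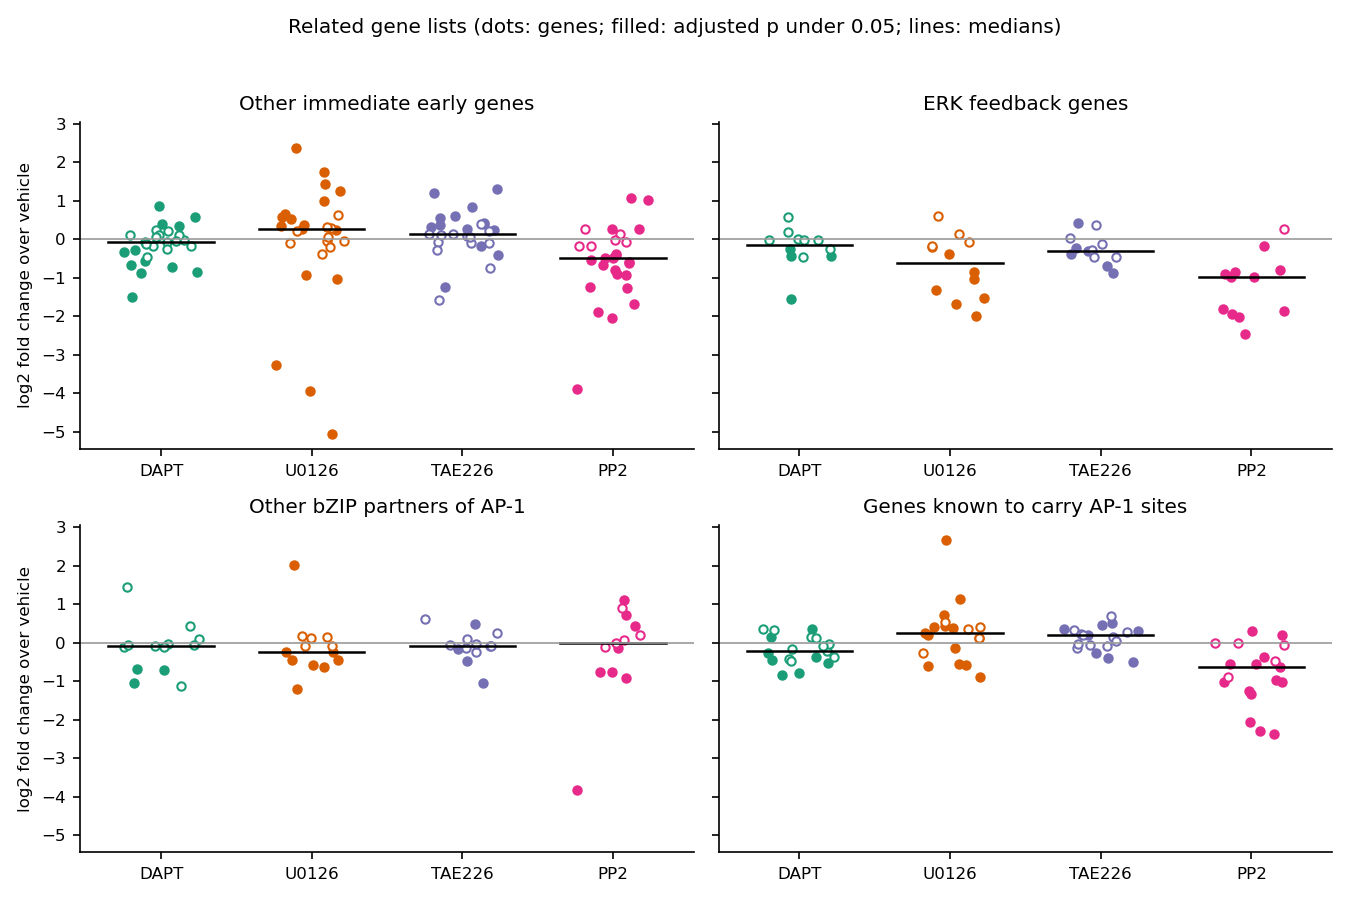
Log2 fold change over vehicle of each tested gene in 4 related lists, by inhibitor, filled where the adjusted p was under 0.05, with a line at the list median. Genes dim in a group are at their fitted value. The ERK feedback genes lie lowest under PP2 (median −0.99), and the other immediate early genes have a median of 0.27 under U0126 and −0.50 under PP2.

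Partners of AP-1 from other bZIP families, which carry the same kind of leucine zipper, included both rises and falls under all inhibitors but DAPT. With median centring this held under U0126 and PP2 only. Of 13 tested, 1 rose and 7 fell under U0126 (median −0.23), 3 rose and 5 fell under PP2 (median −0.02, or −0.06 with 1 dim gene at its bound), 1 rose and 3 fell under TAE226 (median −0.07), and 3 fell under DAPT (median −0.09). The called shares were 61.5% under U0126 and under PP2, 30.8% under TAE226 and 23.1% under DAPT, beside 40.9%, 52.8%, 31.1% and 34.6% of all genes, so those under PP2, TAE226 and DAPT were near or below the background. With median centring, 1 rose and 7 fell under U0126, 1 and 6 under PP2, 0 and 5 under TAE226, and 0 and 4 under DAPT. Of the 3 falls under TAE226, that of Atf2 was lost under 7 of 16 alternatives. Maff, a small MAF protein, fell at least 3.59-fold under PP2 (adjusted p = 3.25e-06), and Maf was at −1.21 under U0126. Atf3, a stress-induced partner of JUN, was at −1.04 under DAPT and −0.90 under PP2. Crem, a regulator that responds to cyclic AMP, was at 1.11 under PP2 and −0.58 under U0126, but both calls were lost when the gene's probe sets were averaged (adjusted p = 0.157 and 0.084).

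Kinases and transcription factors upstream of these genes were called in shares near those of all genes. Of 24 genes listed, 16 had a probe set of their own and were tested. Of these, 3 rose and 5 fell under U0126, 5 and 2 under PP2, 3 and 1 under TAE226, and 3 and 2 under DAPT, with medians between −0.02 and 0.08. The called shares were 50%, 43.8%, 25% and 31.2%, where all genes gave 40.9%, 52.8%, 31.1% and 34.6%. The directions depended on the scaling. With median centring, 1 rose and 5 fell under U0126, 0 and 5 under PP2, 0 and 6 under TAE226, and 2 and 2 under DAPT. With that scaling, 38% of all genes were lower under PP2 and 37.2% under TAE226. Map2k1, which encodes Mek1, fell under PP2 (−0.67, adjusted p = 5.82e-08), TAE226 (−0.49, adjusted p = 7.96e-06), DAPT (−0.42, adjusted p = 3.61e-05) and, named here after its value was seen, U0126 (−0.36, adjusted p = 0.000114). Srf, the serum response factor gene, rose under DAPT (0.53, adjusted p = 7.93e-05) and TAE226 (0.44, adjusted p = 0.000517), the latter not with median centring (adjusted p = 0.171). The ETS partner of serum response factor Elk3 rose under U0126 (0.55, adjusted p = 1.18e-05) and was lower under PP2 (−0.54, adjusted p = 7.91e-06), a call lost when its probe sets were averaged (adjusted p = 0.472).

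Genes known from other systems to carry AP-1 sites also split by inhibitor. Of 19 tested, 8 rose and 5 fell under U0126 (median 0.26), but with median centring 3 rose. Under PP2 2 rose and 12 fell (median −0.63, or −0.54 with 3 dim genes at their bound), under TAE226 5 rose and 3 fell (median 0.20), or 0 rose and 6 fell with median centring, and under DAPT 2 rose and 6 fell (median −0.20, or −0.16 with 1 dim gene at its bound). The called shares were 68.4% under U0126, 73.7% under PP2, 42.1% under TAE226 and 42.1% under DAPT, beside 40.9%, 52.8%, 31.1% and 34.6% of all genes. Hbegf, an EGF receptor ligand, was at −2.36 under PP2 (adjusted p = 4.69e-11), and the metallothionein Mt2 was at −2.29 (adjusted p = 1.01e-11). Nqo1, a quinone reductase that is also a target of the oxidative stress factor NRF2, rose by 2.66 under U0126 (adjusted p = 3.03e-13). Lif, a cytokine, and Cdkn1a, the cell cycle inhibitor p21, were at −0.83 and −0.79 under DAPT (adjusted p = 1.49e-07 and 4.29e-08).

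For the 5 genes whose group means spanned at least 1 on the log2 scale, the tested genes nearest in pattern were found by the root mean square difference of centred log2 signals over the 15 arrays. Nearest to Egr1 were Calml3 (0.417), Egr3 (0.418) and Emid1 (0.447), where the median gene lay at 1.21. Nearest to Fos were Mt2 (0.223), Il20rb (0.247) and Ankrd22 (0.254), with a median gene at 0.799. Mt2, which is also on the list of genes with AP-1 sites, was at −0.16, −0.89, −0.49 and −2.29 under DAPT, U0126, TAE226 and PP2, beside −0.06, −1.21, −0.54 and −2.0 for Fos. Nearest to Ier2 were Casp12 (0.133), Phlda1 (0.136) and Esyt3 (0.138), and nearest to Ier3 were Ralb (0.127), Lonrf3 (0.135) and Rassf6 (0.135), against median genes at 0.513 and 0.54. For Fosl1 the nearest were Kdelr3 (0.611), Gm2102 (0.706) and Fcmr (0.713), with a median gene at 1.41. Fosl1 was dim under DAPT, U0126 and PP2, with a log2 SD of 2.04 under PP2. Its span and its nearest genes therefore rest largely on signals below the array median. These distances describe the 15 arrays and carry no test.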

How the data were processed

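The deposited table holds 1 signal intensity per probe set and array on a linear scale, made by the authors with Affymetrix Expression Console and MAS5, per the submitters' processing notes. The sources used here do not give the settings. The values themselves show that each array's mean after trimming 2% at each end is 500. Of 45101 probe sets, 34945 carry 1 gene in the platform annotation, and 34741 of these were found in the reference gene table through their Entrez ID. The probe set with the greatest mean log2 intensity stood for each gene. A gene entered the tests if this probe set exceeded the array median on 3 or more of 15 arrays, as 11412 did. Limma 3.58.1, run in R 4.3.3, fitted a mean per treatment group to the log2 intensities, with an intensity trend (degrees of freedom 10 residual, 6.40 prior). Two-sided p-values received the Benjamini-Hochberg adjustment over all genes tested in a comparison, and the threshold was 0.05. The fit was tested on simulated data. Standard errors of log2 fold changes had a median of 0.0976, and the number of arrays limits the precision. A lower bound on a fold takes, for a dim array, its median or the gene's signal, whichever is greater. Pairs of arrays differed by a median absolute log2 value of 0.0956 to 0.149 where they shared a treatment and 0.169 to 0.351 where they did not. The main fit did not treat samples with the same replicate number as paired, and the sources used here do not say whether they were. The members and the gene lists were chosen with earlier results of these data known. From each list at most 4 genes past the threshold with the greatest change are named per comparison. Alternatives varied the scaling, pseudocount, filter, probe set rule, variance model, replicate block and samples used.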

Additional observations from a re-analysis of the deposited data

How the results depend on the processing

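Over 10 comparisons, 67 of 90 values of the tested members were called, where 22.6% to 55.9% of all genes were called per comparison. The 67 include calls on Fosl1, with its built-in difference. Of the 67 calls, 51 were lost under no alternative and 16 under at least 1. With the replicate block, every member call was kept in the 4 comparisons with vehicle (5, 8, 6 and 8 shared under DAPT, U0126, TAE226 and PP2), and the genes called there were 3794, 4517, 3409 and 5930, against 3948, 4663, 3548 and 6030 without it; deviations of arrays with the same number had a median correlation of 0.01 (−0.24 to 0.20). The median log2 fold change of the tested members moved by more than its spread between replicates (0.051) in these settings, of which the stricter filter and the mean over probe sets leave out Fosl1. With median centring it was −0.33 (DAPT), −0.74 (U0126), −0.48 (TAE226) and −1.09 (PP2) against vehicle. Among inhibitors it was −0.26 (DAPT minus U0126), −0.074 (DAPT minus TAE226), 0.28 (DAPT minus PP2), −0.50 (U0126 minus TAE226) and 0.23 (U0126 minus PP2). With quantile normalization DAPT minus U0126 was −0.093. With a pseudocount of 80.7 the median was −0.59 (U0126), −0.78 (PP2) and −0.41 (U0126 minus TAE226), and with array weights −0.71 (U0126). With genes above the median on all arrays it was −0.13 (DAPT), −0.42 (U0126), −0.63 (PP2), 0.028 (DAPT minus U0126), −0.11 (DAPT minus TAE226), 0.14 (DAPT minus PP2), −0.34 (U0126 minus TAE226), 0.0014 (U0126 minus PP2) and 0.39 (TAE226 minus PP2). With the mean over a gene's probe sets it was −0.13 (DAPT), −0.57 (U0126), −0.63 (PP2), 0.38 (DAPT minus U0126), −0.038 (DAPT minus TAE226), 0.14 (DAPT minus PP2), −0.046 (U0126 minus PP2) and 0.39 (TAE226 minus PP2). Leaving out 1 replicate gave −0.77 to −0.58 (U0126), −0.89 to −0.80 (PP2), −0.73 to −0.59 (U0126 minus TAE226), 0.0485 to 0.16 (U0126 minus PP2) and 0.57 to 0.67 (TAE226 minus PP2). Some values changed sign. With median centring Fosl2 was at −0.063, Jund at −0.11 and Egr1 at −0.12 under DAPT, and Fosl2 was at −0.17, Junb at −0.19, Jund at −0.038 and Elk3 at −0.057 under TAE226. With it Fosl2 was also at 0.10 for DAPT minus TAE226, Jun at 0.16 for U0126 minus TAE226 and Jun at 0.045 for U0126 minus PP2. With the mean over probe sets Jund was at −0.49 under U0126, 0.49 for DAPT minus U0126 and −0.58 for U0126 minus TAE226, Jun at 0.070 under PP2, Fosl2 at 0.0084 for DAPT minus TAE226 and Atf2 at 0.0059 under TAE226. Jund was at −0.0079 under DAPT with array weights and at −0.059 for U0126 minus TAE226 with quantile normalization. Leaving out 1 replicate gave −0.0339 to 0.0605 for Egr1 and −0.0019 to 0.0704 for Jund under DAPT, −0.0461 to 0.14 for Junb under TAE226, −0.0543 to 0.0236 for Fosl2 and −0.0085 to 0.058 for Ier2 in DAPT minus TAE226, and −0.0187 to 0.0621 for Jund in U0126 minus TAE226. The cause of these changes was not tested. Dim signals limit Fosl1 to bounds and leave Fosb unmeasured.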
